A study of Rattus norvegicus with 6 samples.

Results

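The 10 genes described here carry out receptor-mediated endocytosis at the brush border of the renal proximal tubule. They are the receptor genes Lrp2, Cubn, Amn, Folr1 and Fcgrt, the receptor chaperone gene Lrpap1, the adaptor genes Dab2 and Ap2a1, and the endosomal genes Clcn5 and Ocrl. They were chosen by symbol. Each symbol occurred once among the 31368 genes of the deposited count table, and all 10 passed the filter on low counts that left 15371 genes for testing.

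The proximal tubule takes filtered albumin, vitamin carriers, hormones and small proteins back from the urine. Megalin and cubilin bind these ligands, clathrin-coated pits carry them into endosomes, acid pH releases them, the receptors return to the brush border and the ligands go on to lysosomes. In people, loss of megalin, cubilin, amnionless, ClC-5 or OCRL function can cause proteinuria.

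The libraries were made from renal tissue of wild-type male Sprague-Dawley rats that were 8 weeks old when the model was set up, in a CKD (chronic kidney disease) group and a Sham group of 3 libraries each. The procedure that produced CKD and the time after it are not given in the sources used here. Whether the 3 libraries of a group come from separate animals is not stated either, so each p-value reflects only how much these libraries vary. Values are CPM, the counts of a gene over the library size after scaling by trimmed mean of M-values (TMM), set to a common total, and a difference was called at an adjusted p under 0.05.

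The libraries held 17240755 to 17503644 counts in CKD and 15918035 to 17409090 in Sham. The 30 proximal tubule markers were all expressed, with a mean log2 CPM of 8.18 to 8.91 in CKD and 7.65 to 9.29 in Sham. Sham 2 stood apart: mitochondrial genes took 37.9% of its counts, against 8.83% to 10.8% in the CKD libraries and 14.4% to 15.3% in Sham 1 and Sham 3. In Sham 2 the summed markers of intercalated cells were at 1729 CPM, against 190 to 370 CPM in the CKD libraries and 299 to 519 CPM in the other 2 Sham libraries. The summed principal cell markers were at 2492 CPM in Sham 2, against 459 to 594 CPM in CKD and 522 to 743 CPM in Sham 1 and Sham 3. Results are therefore also given without Sham 2.

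None of the 10 genes was called different between CKD and Sham in the edgeR quasi-likelihood test, which does not show that they were equal. Over all 15371 genes tested, 3.82% were called, 2.67% higher and 1.15% lower in CKD, so 0 of 10 is near what that share gives. At an unadjusted p under 0.05 the count was also 0 of 10, against 23.8% of all genes, and DESeq2 and limma-voom called 0 of 10, against 16.3% and 1.07% of all genes. The groups overlapped for all 10 genes, while 31.2% of all genes had groups that did not overlap, 18.8% with CKD above and 12.4% with CKD below. For all 10 genes the CKD range lay inside the Sham range, which was so for 31.2% of all genes. Together the 10 genes reached 6411 ± 944 CPM in CKD and 5699 ± 3207 CPM in Sham (SD, n = 3 each). In bulk tissue, fewer proximal tubule cells and less RNA per cell cannot be told apart.

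**Figure D1:**
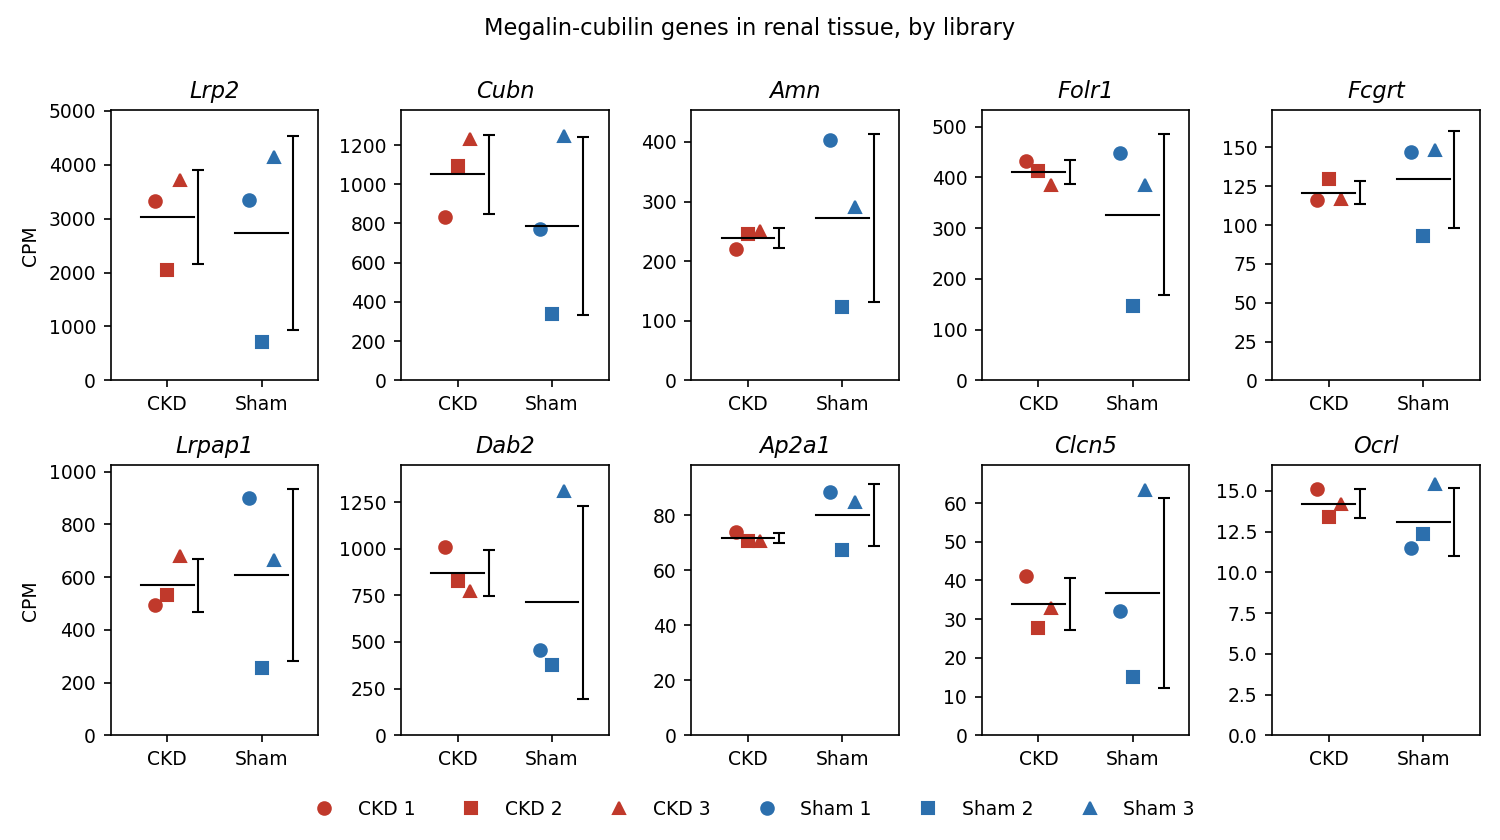
CPM of the 10 genes in each library, CKD left and Sham right in each panel, on linear axes that start at 0. Horizontal lines are group means and brackets are ± SD (n = 3 each), and Sham 2 (blue square) is the lowest of the 6 libraries in every panel but that of Ocrl.

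Sham 2 was the lowest of the 6 libraries for 9 of the 10 genes, against 27.2% of all genes tested. Relative to the mean of Sham 1 and Sham 3, its level was 0.188 for Lrp2, 0.337 for Cubn, 0.355 for Amn, 0.352 for Folr1, 0.327 for Lrpap1 and 0.314 for Clcn5. It was 0.428 for Dab2, 0.632 for Fcgrt, 0.778 for Ap2a1 and 0.920 for Ocrl. Lrp2 thus stood lowest in that library relative to the other Sham libraries, and Ap2a1 and Ocrl, which are expressed in most cell types, stood highest. The SD of log2 CPM was larger in Sham than in CKD for all 10 genes, as for 79.6% of all genes. With mitochondrial counts left out, the 10 genes held 0.681% to 0.923% of the counts in the CKD libraries, against 0.664% in Sham 1, 0.288% in Sham 2 and 0.880% in Sham 3, so the low level in Sham 2 was also there without those counts. In the fit with mitochondrial genes removed, Lrp2 had a log2 fold change of 0.11 ± 0.65. The part that the cell makeup of Sham 2 had in these levels was not tested.

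Lrp2 (ENSRNOG00000056184, chromosome 3, 54189308 to 54346708, minus strand) encodes megalin, the large scavenger receptor of the brush border. Here and below, positions are those of the deposited table, whose build is not named in the file. Lrp2 was at 3328, 2054 and 3718 CPM in CKD 1 to 3, against 3341, 705 and 4153 CPM in Sham 1 to 3. CKD 2 and Sham 2 were the low libraries of their groups, and the other 4 libraries lay close together. The log2 fold change was 0.15 ± 0.65 (SE), with a 95% interval of -1.37 to 1.67 and an adjusted p of 0.914. Without Sham 2 the log2 fold change was -0.34 ± 0.33 (adjusted p = 0.539).

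Cubn (ENSRNOG00000029047, chromosome 17, 76385060 to 76593231, minus strand) encodes cubilin, the peripheral receptor for albumin and for intrinsic factor with vitamin B12. It was at 832, 1093 and 1229 CPM in CKD, against 774, 341 and 1245 CPM in Sham. The CKD libraries covered nearly the range of Sham 1 and Sham 3, and Sham 2 lay below all of them. Its log2 fold change of 0.42 ± 0.49 (95% interval -0.72 to 1.55, adjusted p = 0.646) was the largest of the 10 in size. Without Sham 2 it was 0.02 ± 0.31.

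Amn (ENSRNOG00000009050, chromosome 6, 130311372 to 130318815, plus strand) encodes amnionless, the membrane anchor that brings cubilin to the cell surface. It was at 219.8, 245 and 251 CPM in CKD, against 403, 123.2 and 290.3 CPM in Sham. The CKD values were close to each other, while the Sham libraries lay on both sides of them. The fitted log2 fold change was -0.19 ± 0.41 (95% interval -1.15 to 0.77, adjusted p = 0.819). Without Sham 2 it was -0.58 ± 0.22, all 3 CKD libraries were below both remaining Sham libraries, and the adjusted p was 0.163.

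Because Lrp2, Cubn and Amn encode the receptor complex itself, the 250 bases before their RefSeq starts are shown (build GRCr8, 5′ to 3′ on the gene's strand). The windows are chr3:74754536-74754785 on the minus strand for Lrp2, chr17:81501695-81501944 on the minus strand for Cubn and chr6:136132317-136132566 on the plus strand for Amn. Capitals mark the GC box GGGCGG in Lrp2 and Amn. In Cubn they mark a match to the HNF1 palindrome (GTTAAT and ATTAAC with any 1 base between them) that has 2 mismatches.
Lrp2: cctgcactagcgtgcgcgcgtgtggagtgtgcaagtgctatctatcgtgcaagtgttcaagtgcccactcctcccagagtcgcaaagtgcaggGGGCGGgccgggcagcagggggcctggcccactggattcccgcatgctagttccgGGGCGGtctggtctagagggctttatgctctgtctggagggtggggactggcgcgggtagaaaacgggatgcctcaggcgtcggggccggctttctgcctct
Cubn: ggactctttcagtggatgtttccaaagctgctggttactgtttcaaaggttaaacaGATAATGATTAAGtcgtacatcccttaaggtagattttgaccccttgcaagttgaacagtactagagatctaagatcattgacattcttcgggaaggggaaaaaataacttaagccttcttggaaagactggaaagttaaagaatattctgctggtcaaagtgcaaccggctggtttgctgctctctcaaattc
Amn: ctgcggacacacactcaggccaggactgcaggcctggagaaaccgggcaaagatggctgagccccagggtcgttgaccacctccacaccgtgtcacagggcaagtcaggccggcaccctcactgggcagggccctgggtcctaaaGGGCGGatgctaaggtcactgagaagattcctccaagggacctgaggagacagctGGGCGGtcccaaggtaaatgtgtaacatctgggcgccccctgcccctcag
HNF1 factors are regulators of proximal tubule genes. With up to 2 mismatches and both strands searched, the HNF1 palindrome was found in 1.09% of 33469 RefSeq windows of this length, and among the 8 of the 10 genes with a window in Cubn only, 194 bases before the start. The GC box, searched exactly on both strands, was found in 30.5% of windows and in those of Lrp2, Amn, Ap2a1 and Lrpap1. Of the Clcn5 windows, chrX:17857010-17857259 held it and chrX:17979730-17979979 did not. The CCAAT box (CCAAT) was in 34% of windows and in those of Ap2a1 and Dab2. The E-box CACGTG (5.59% of windows) and the TATA box TATAAA (12.9%) were in none of the members' windows. The 3 printed windows hold 64.4% (Lrp2), 40.0% (Cubn) and 62.8% (Amn) G and C, and no marked motif overlaps another. Letters alone do not show that a factor binds.

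Folr1 (ENSRNOG00000019902, chromosome 1, 156219460 to 156230667, minus strand) encodes the folate receptor that recovers filtered folate together with megalin. It was at 432, 413 and 386 CPM in CKD, against 448, 147 and 385 CPM in Sham. The CKD libraries and Sham 1 and Sham 3 covered nearly the same range. Its log2 fold change was 0.33 ± 0.41 (95% interval -0.63 to 1.29, adjusted p = 0.671), and -0.06 ± 0.20 without Sham 2.

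Fcgrt (ENSRNOG00000020583, chromosome 1, 95567175 to 95584084, minus strand) encodes the heavy chain of the neonatal Fc receptor, which binds albumin and IgG in acid endosomes and returns them intact. It was at 116, 129 and 117 CPM in CKD, against 147, 93.2 and 148 CPM in Sham. All 3 CKD libraries lay between Sham 2 and the other 2 Sham libraries. In the edgeR fit the log2 fold change was -0.10 ± 0.24 (95% interval -0.65 to 0.46, adjusted p = 0.840), and -0.33 ± 0.16 without Sham 2 (adjusted p = 0.249). The gene shares 6551 bases of its span with Rcn3 on the same strand, which had 1706 counts in all against 12936 for Fcgrt, so part of either count is uncertain.

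Lrpap1 (ENSRNOG00000009313, chromosome 14, 75651376 to 75665414, plus strand) encodes RAP, the chaperone that keeps ligands off megalin in the endoplasmic reticulum. It was at 493, 531 and 682 CPM in CKD, against 899.8, 256 and 665 CPM in Sham. Sham 1 was the highest library and Sham 2 the lowest. The fitted log2 fold change was -0.09 ± 0.46 (95% interval -1.17 to 0.98, adjusted p = 0.924), and -0.50 ± 0.27 without Sham 2 (adjusted p = 0.278).

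Among the adaptors, Dab2 (ENSRNOG00000028930, chromosome 2, 55514700 to 55567476, plus strand) links the megalin tail to clathrin. It was at 1007, 825 and 772 CPM in CKD, against 454, 378 and 1310.0 CPM in Sham. Here Sham 1 was low together with Sham 2, and Sham 3 was above every CKD library. Its log2 fold change was 0.28 ± 0.51 (95% interval -0.90 to 1.46, adjusted p = 0.780), and -0.06 ± 0.44 without Sham 2. Dab2 had a Sham coefficient of variation of 72.5%, the largest of the 10, against 14.2% in CKD.

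Ap2a1 (ENSRNOG00000026243, chromosome 1, 95384309 to 95414147, minus strand) encodes an alpha subunit of AP-2, the clathrin adaptor of the plasma membrane in all cell types. It was at 73.9, 70.8 and 70.6 CPM in CKD, against 88.4, 67.4 and 84.8 CPM in Sham. The CKD libraries were nearly equal, with a coefficient of variation of 2.57%, against 14.0% in Sham. In the edgeR fit the log2 fold change was -0.16 ± 0.19 (95% interval -0.60 to 0.28, adjusted p = 0.649), and -0.31 ± 0.15 without Sham 2 (adjusted p = 0.240). The gene overlaps Fuz by 222 bases on the other strand, and how reads that also match its paralog Ap2a2 were counted is not given here.

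Among the endosomal genes, Clcn5 (ENSRNOG00000002862, chromosome X, 15185451 to 15334264, plus strand) encodes ClC-5, the chloride-proton exchanger of early endosomes that is lost in Dent disease. It was at 41.1, 27.7 and 32.8 CPM in CKD, against 32.01, 14.95 and 63.3 CPM in Sham. Sham 3 was the highest and Sham 2 the lowest library, with all CKD values between them. The fitted log2 fold change was -0.12 ± 0.47 (95% interval -1.22 to 0.98, adjusted p = 0.906), and -0.53 ± 0.32 without Sham 2 (adjusted p = 0.332).

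Ocrl (ENSRNOG00000003875, chromosome X, 127089590 to 127140362, plus strand) encodes the inositol polyphosphate phosphatase that is mutated in Lowe syndrome and acts on coated pits and early endosomes. It was at 15.1, 13.4 and 14.2 CPM in CKD, against 11.5, 12.4 and 15.4 CPM in Sham. It was the lowest of the 10 in total counts, with 313, 269 and 277 counts in CKD and 172, 177 and 219 in Sham, and the one whose lowest library was Sham 1. Its log2 fold change was 0.12 ± 0.23 (95% interval -0.42 to 0.66, adjusted p = 0.795), and 0.04 ± 0.23 without Sham 2.

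Over the 10 genes, 5 log2 fold changes were positive and 5 negative, against 49.5% positive among all genes, with a median of 0.01 against -0.01 over all genes. With library totals as the only scaling, the median over all genes moved to 0.41 and that of the 10 genes to 0.43, and Amn, Clcn5, Fcgrt, Ap2a1 and Lrpap1 turned positive. Without Sham 2, 8 of the 10 were negative, against 51.3% of all genes, and the median was -0.32 against -0.02 over all genes. In that comparison of 3 against 2 libraries, 0 of 10 were called, as were 0.0127% of all genes. Amn alone had an unadjusted p under 0.05, against 27% of all genes. Amn, Fcgrt and Ap2a1 were lower in all 3 CKD libraries than in Sham 1 and Sham 3, which held for 20.7% of all genes, and none was higher in all, against 25.6%.

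**Figure D2:**
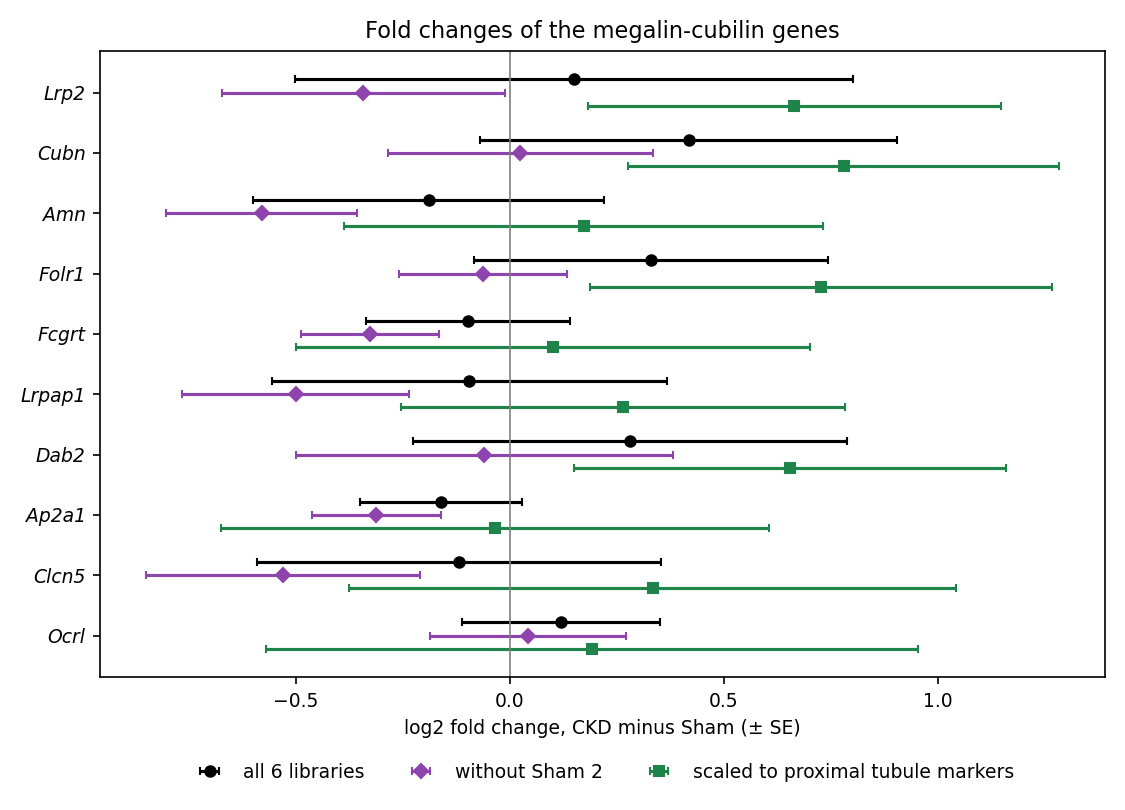
log2 fold changes (CKD minus Sham) with ± 1 SE for the 10 genes, in all 6 libraries (black), without Sham 2 (purple) and with library sizes scaled to the proximal tubule markers (green). The black values run from -0.19 to 0.42, none was called in any of the 3 fits, and with scaling to the markers Amn, Clcn5, Fcgrt and Lrpap1 lie on the other side of 0.

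Levels were compared between genes as mean CPM per kilobase over the 6 libraries, with the gene length of the deposited table. Folr1 was the highest at 288 CPM per kilobase, followed by Lrpap1 at 171, Dab2 at 163, Amn at 145 and Lrp2 at 116 CPM per kilobase. Per kilobase, Lrp2 ranked 4 among the 10 in CKD 1, CKD 3, Sham 1 and Sham 3, 6 in CKD 2 and 7 in Sham 2. Cubn followed at 78.9, Fcgrt at 75.6, Ap2a1 at 16.0, Clcn5 at 11.6 and Ocrl at 2.56 CPM per kilobase. Between neighbours in this order the ranges over the 6 libraries were separate only for Fcgrt above Ap2a1 and for Clcn5 above Ocrl. Folr1 exceeded Lrpap1 in 6 of 6 libraries although their ranges overlapped, and the other neighbours did not differ beyond their spread.

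Because the proximal tubule markers themselves varied, each gene was also set against them within its library, as log2 CPM minus the mean log2 CPM of the 30 markers. Of these markers 0 rose, 1 fell, 12 had positive and 18 negative log2 fold changes, and the median was -0.41. Their summed level was 18465 to 28219 CPM in CKD and 14208 to 47195 CPM in Sham, and none was at 0 in any library. The marker that fell was Slc17a3, an organic anion transporter, at 81.8, 78.4 and 119 CPM in CKD, against 214, 221 and 225 CPM in Sham (log2 fold change -1.24 ± 0.24, edgeR adjusted p = 0.0415). Without Sham 2 its log2 fold change was -1.28 ± 0.24 with an adjusted p of 0.0605, in a fit that called 2 genes of 15756, and the median of the markers was -0.77. Slc34a1, the main phosphate transporter, had a log2 fold change of -0.43 ± 0.45 (adjusted p = 0.604), and Slc5a2, the glucose transporter of the early segment, 0.41 ± 0.51 (adjusted p = 0.668).

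Relative to these markers, Cubn was at 1.52, 1.67 and 1.35 on the log2 scale in CKD, against 0.41, 0.76 and 0.99 in Sham. Folr1 was at 0.57, 0.27 and -0.32 in CKD, against -0.38, -0.45 and -0.70 in Sham. For both genes every CKD library was above every Sham library, which held for 2 of the 10 genes and for 8.56% of all genes, while CKD was below Sham for 0 of 10 and 2.88%. For Folr1 the gap was narrow, with CKD 3 at -0.32 and Sham 1 at -0.38. Among the markers, Slc7a13 was at 618 CPM in CKD 3 and 6766 CPM in Sham 1, and whether the Folr1 gap depends on it was not tested. The mean difference was 0.79 for Cubn and 0.69 for Folr1. Lrp2 was at 3.52, 2.58 and 2.95 in CKD, against 2.52, 1.81 and 2.73 in Sham, with overlap and a difference of 0.66. Without Sham 2 the Lrp2 difference was 0.39. For Dab2 the difference was 0.71, with overlap, and 0.26 without Sham 1. For the other 6 genes it lay between 0.05 and 0.33, and it moved with single libraries: for Ocrl it was 0.0061 without Sham 1 and 0.83 without Sham 2, for Ap2a1 -0.19 without Sham 3, for Fcgrt -0.043 without Sham 3 and for Clcn5 -0.0071 without CKD 1. These relative levels carry no test of their own. In the edgeR fit with library sizes scaled to the markers, 0 of 10 were called, against 4.24% of all genes, and Cubn had a log2 fold change of 0.78 ± 0.50 (adjusted p = 0.645).

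**Figure D3:**
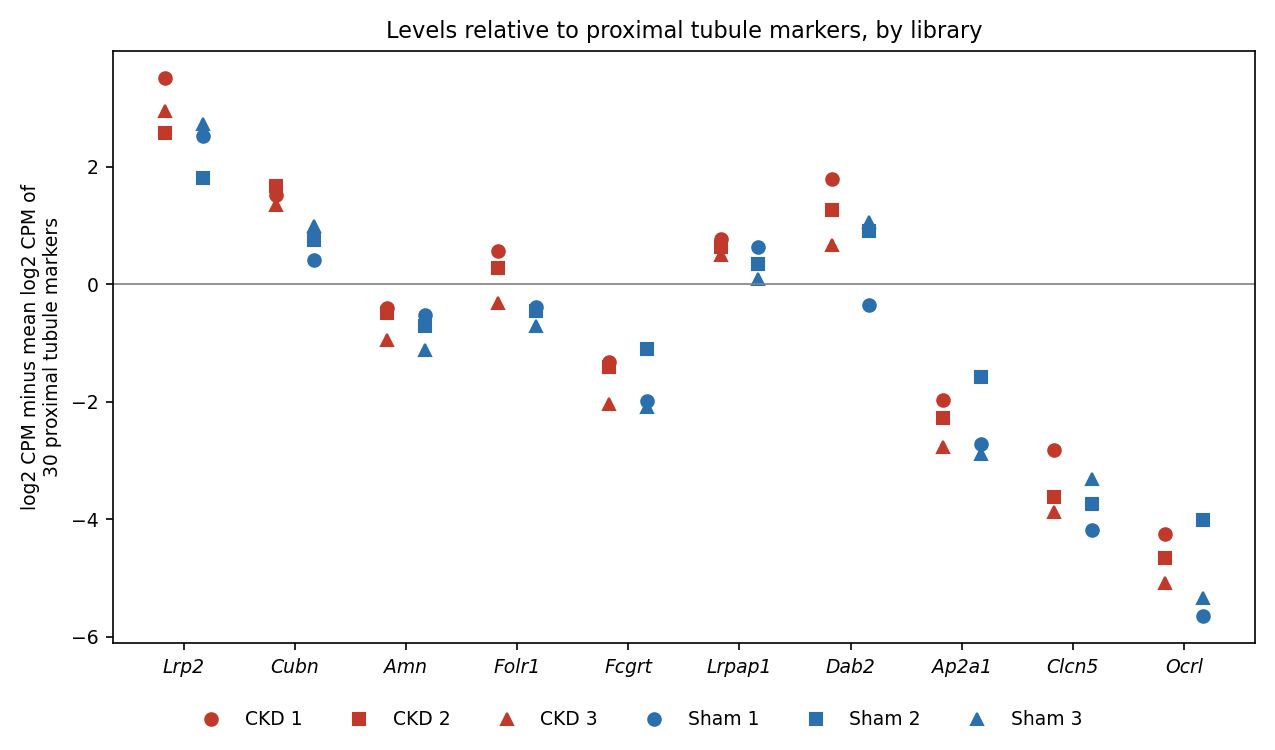
log2 CPM of each gene minus the mean log2 CPM of 30 proximal tubule markers in the same library, CKD in red left of Sham in blue. Every CKD library is above every Sham library for Cubn (1.35 to 1.67 against 0.41 to 0.99) and, by a narrow gap, Folr1 (-0.32 to 0.57 against -0.70 to -0.38). The groups overlap for the other 8 genes.

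Within a library, ratios of partner genes per kilobase do not depend on the scaling. Of 8 ratios compared by a two-sided exact permutation test over libraries, none passed, and with 3 libraries against 3 the smallest p this test can give is 0.1. Cubilin to its anchor, Cubn over Amn, was 0.572, 0.674 and 0.739 in CKD, against 0.290, 0.418 and 0.648 in Sham (log2 difference 0.62, exact p = 0.2, adjusted 0.4). The lowest CKD ratio was below Sham 3, so the groups overlapped, and the difference was 0.34 without Sham 1. Lrp2 over Cubn was 1.87, 0.879 and 1.42 in CKD, against 2.02, 0.969 and 1.56 in Sham (log2 difference -0.13, exact p = 0.7, adjusted 0.933). Library 2 of each group had the lowest ratio. Fcgrt over B2m, the light chain of the same receptor, was 0.111, 0.1251 and 0.217 in CKD, against 0.219, 0.334 and 0.262 in Sham (log2 difference -0.89, exact p = 0.1, adjusted 0.4). The groups did not overlap, and CKD 3 came close to Sham 1. B2m also belongs to the class I molecules of all nucleated cells, and its own log2 fold change was 0.79 ± 0.44 (adjusted p = 0.324).

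Ap2a1 over its paralog Ap2a2 was 0.244, 0.239 and 0.226 in CKD, against 0.257, 0.423 and 0.276 in Sham (log2 difference -0.40, exact p = 0.1, adjusted 0.4). These groups did not overlap either, and Sham 2 had the highest ratio; without it the difference was -0.17. Clcn5 over Clcn4, a related exchanger, was 0.992, 0.794 and 0.818 in CKD, against 1.25, 2.37 and 0.927 in Sham (log2 difference -0.69, exact p = 0.2, adjusted 0.4). That difference was -0.32 without Sham 2 and -0.33 as a ratio of group means. The log2 differences were 0.39 for Lrp2 over its chaperone gene Lrpap1 (exact p = 0.4, and 0.12 without Sham 2), -0.04 for Lrp2 over Dab2 (exact p = 1) and -0.11 for Ocrl over Inpp5b, a related phosphatase (exact p = 0.9).

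Of 100 other genes of the path, 94 were tested, 1 rose and 0 fell, against 2.67% and 1.15% of all genes. The gene that rose was Folr2, the folate receptor of macrophages, at 9.02, 10.04 and 4.25 CPM in CKD, against 1.33, 0.978 and 1.48 CPM in Sham (log2 fold change 2.61 ± 0.46, edgeR adjusted p = 0.0379). Without Sham 2 the log2 fold change was 2.42 ± 0.49 and the adjusted p 0.0635. Of 11 macrophage markers 3 rose, Cd163, Mrc1 and C1qa, and all 11 were positive, with a median of 2.04. Their summed level was 680 to 1673 CPM in CKD and 176 to 451 CPM in Sham, and their part in the Folr2 result was not tested. Folr1 and Folr2 are paralogs, and reads from one could be counted for the other.

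The 18 coat and adaptor genes had 11 positive and 7 negative log2 fold changes, with a median of 0.09. Those with the smallest p were Ap2s1, the small AP-2 subunit (-0.67 ± 0.27, adjusted p = 0.182), and Eps15, a coated pit scaffold (0.54 ± 0.23, adjusted p = 0.216). The 22 endosome sorting and recycling genes had 13 positive and 9 negative values and a median of 0.09. Rab11b, of the recycling endosome, had -0.60 ± 0.21 (adjusted p = 0.146), and Rab38, a small GTPase of lysosome-related traffic, 1.54 ± 0.69 (adjusted p = 0.223). In edgeR 0 genes of these 2 lists were called, with 2 at an unadjusted p under 0.05, both lower. DESeq2 called Rab11b lower and limma-voom called 0.

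The 14 genes of endosome acidification and ion exchange, mostly subunits of the vacuolar proton pump, had 2 positive and 12 negative values, with a median of -0.38. In edgeR 0 were called and 6 had an unadjusted p under 0.05, all lower, against 23.8% of all genes in either direction. DESeq2 called 5 lower (Atp6v0a1, Atp6v0c, Atp6v1e1, Atp6v1h and Atp6ap2), against 7.28% of all genes called lower, and limma-voom called 0. For 7 of them CKD was below Sham in every library, against 12.4% of all genes. Atp6v0a1 was at 60.0, 58.2 and 56.3 CPM in CKD, against 78.6, 147 and 109 CPM in Sham (log2 fold change -0.94 ± 0.25, adjusted p = 0.0787). Sham 2 had the highest level. Atp6v0c had a log2 fold change of -0.80 ± 0.26 (adjusted p = 0.123). Intercalated cells also express this pump, and their 5 tested markers, summed at 190 to 370 CPM in CKD and 299 to 1729 CPM in Sham, were all negative with a median of -1.22. Atp6v0a4, which marks those cells, was at 0 in all 6 libraries. Without Sham 2, 14 of 14 acidification genes were negative with a median of -0.51, and CKD was below both remaining Sham libraries for 11 (20.7% of all genes). In that fit edgeR called 0 of them, with 9 at an unadjusted p under 0.05, against 27% of all genes in either direction. The intercalated cell median was -0.23 and the proximal tubule marker median -0.77. What intercalated or proximal tubule cells contributed to the acidification gene levels was not tested.

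The 11 genes of the lysosomal end had 10 positive values and 1 negative, with a median of 0.21. In edgeR 0 were called and 3 had an unadjusted p under 0.05, all higher, while DESeq2 called Ctns higher and limma-voom called 0. Ctns, the lysosomal cystine exporter, was at 19.8, 18.1 and 17.5 CPM in CKD, against 8.40, 10.1 and 12.5 CPM in Sham (log2 fold change 0.84 ± 0.24, adjusted p = 0.0898). Every CKD library was above every Sham library. Npc2, a lysosomal cholesterol carrier, had 0.49 ± 0.19 (adjusted p = 0.164). Without Sham 2, 5 of the 11 were negative, with a median of 0.25.

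The 16 related receptors had 8 positive and 8 negative values, with a median of 0.06, and DESeq2 called Lrp1 higher beside Folr2. The 13 carriers and vitamin users, which handle the ligands of megalin and cubilin, had 7 positive and 6 negative values, with a median of 0.08. In edgeR 0 were called and 3 had an unadjusted p under 0.05, while DESeq2 called Gc and Cyp24a1 lower and Cyp27b1 higher, and limma-voom called 0. Cyp24a1, the enzyme that breaks down active vitamin D, was at 125, 103 and 119 CPM in CKD, against 363, 293 and 1748 CPM in Sham (log2 fold change -2.79 ± 0.70, adjusted p = 0.0689). Sham 3 was far above the other 2 Sham libraries. Gc, the vitamin D-binding protein made mainly by liver, was at 0.0965, 0.745 and 1.33 CPM in CKD, against 125, 13.3 and 5.14 CPM in Sham (log2 fold change -6.04 ± 1.41, adjusted p = 0.0577). Sham 1 carried most of that Sham signal.

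**Figure D4:**
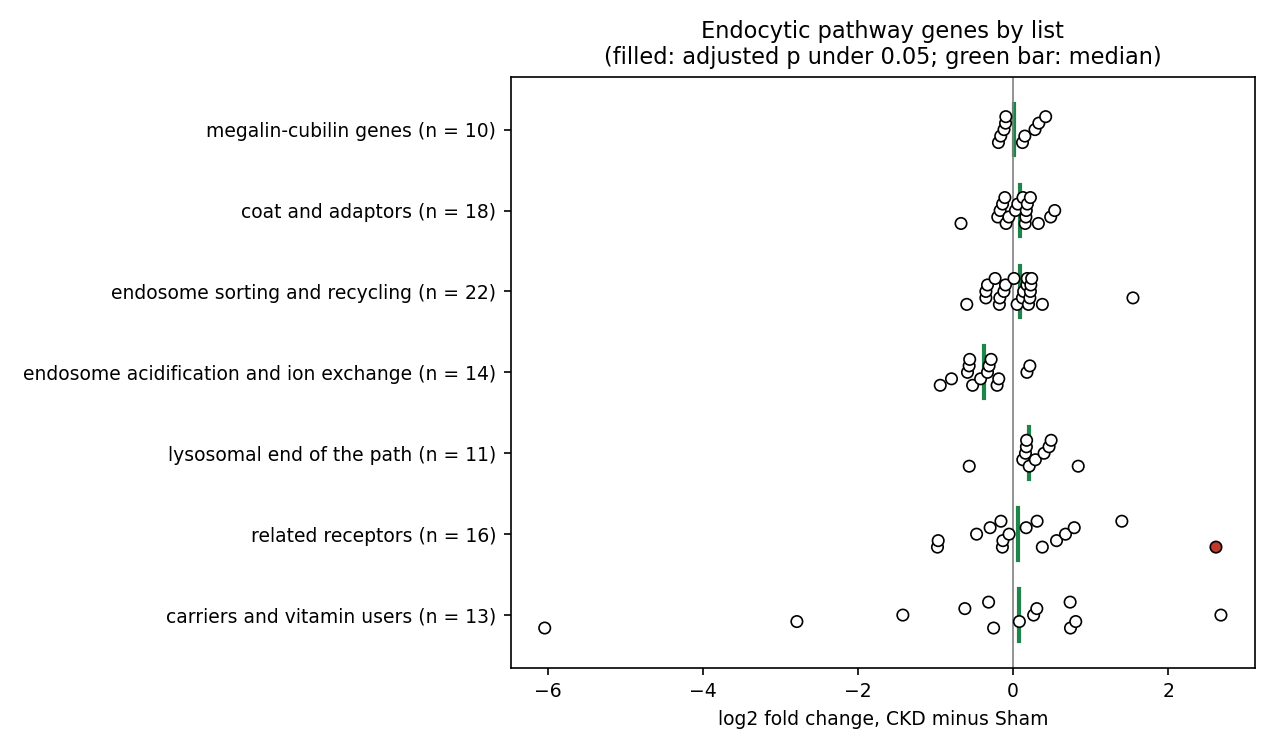
log2 fold changes (CKD minus Sham) of the 10 genes and of 6 lists of other endocytic genes, 1 circle per tested gene, filled where the adjusted p was under 0.05, with green bars at the medians. Folr2 at 2.61 is the filled circle, and the acidification genes have the lowest median at -0.38.

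By root mean square difference of the centred log2 CPM over the 6 libraries, among 9848 genes, the profiles nearest to that of Lrp2 were those of Tinag (0.18), a basement membrane glycoprotein of tubules, Prkaa2 (0.22), a catalytic subunit of AMP-activated kinase, and Cd28 (0.25), a co-stimulatory receptor of T cells. Tinag was at 112, 95.5 and 134 CPM in CKD, against 143, 33.3 and 166 CPM in Sham, so it too was lowest in Sham 2. Nearest to Cubn were Nectin1 (0.11), an adhesion molecule, Rpp25 (0.11), a ribonuclease P subunit, and Ipp (0.14). Among the 10 genes, the nearest to Lrp2 were Clcn5 at rank 101, Folr1 at rank 128 and Cubn at rank 143, and the nearest to Cubn was Folr1 at rank 179. Many genes outside the 10 thus lay nearer to each receptor gene than the other members did.

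The summed markers of injured tubule, fibroblasts and mural cells, macrophages and lymphocytes were higher in every CKD library than in every Sham library. Of 11 injured tubule markers 5 rose, and their summed level was 3543 to 10785 CPM in CKD and 726 to 1217 CPM in Sham. Havcr1, the injury marker KIM-1 of proximal tubule cells, was at 262, 144 and 45.8 CPM in CKD, against 2.53, 3.07 and 3.94 CPM in Sham (log2 fold change 5.56 ± 0.67, adjusted p = 0.0278), and without Sham 2 its log2 fold change was 5.49 ± 0.85 with an adjusted p of 0.0554. Fibroblast and mural cell markers summed to 940.4 to 1531 CPM in CKD and 145 to 582 CPM in Sham, with 1 of 10 higher (Col1a1) and Lum at 0 in Sham 2. The distal and connecting tubule markers summed to 745 to 868 CPM in CKD and 249 to 3775 CPM in Sham. Lymphocyte markers summed to 22.6 to 40.0 CPM in CKD and 7.39 to 7.87 CPM in Sham, with 2 of 7 higher. The markers of podocytes, thick ascending limb, endothelium and distal, principal and intercalated cells had groups that overlapped in their summed level. In edgeR and limma-voom 0 markers of these lists were called. DESeq2 called 3 principal cell markers lower (Aqp2, Aqp3 and Fxyd4) and 1 each of intercalated cells (Slc4a1), distal tubule (Klk1), thick ascending limb (Cldn16) and endothelium (Pecam1) lower. Pvalb of the distal tubule and Avpr2 of principal cells were at 0 in all 6 libraries. What these shifts contribute to the levels of the 10 genes was not tested.

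**Figure D5:**
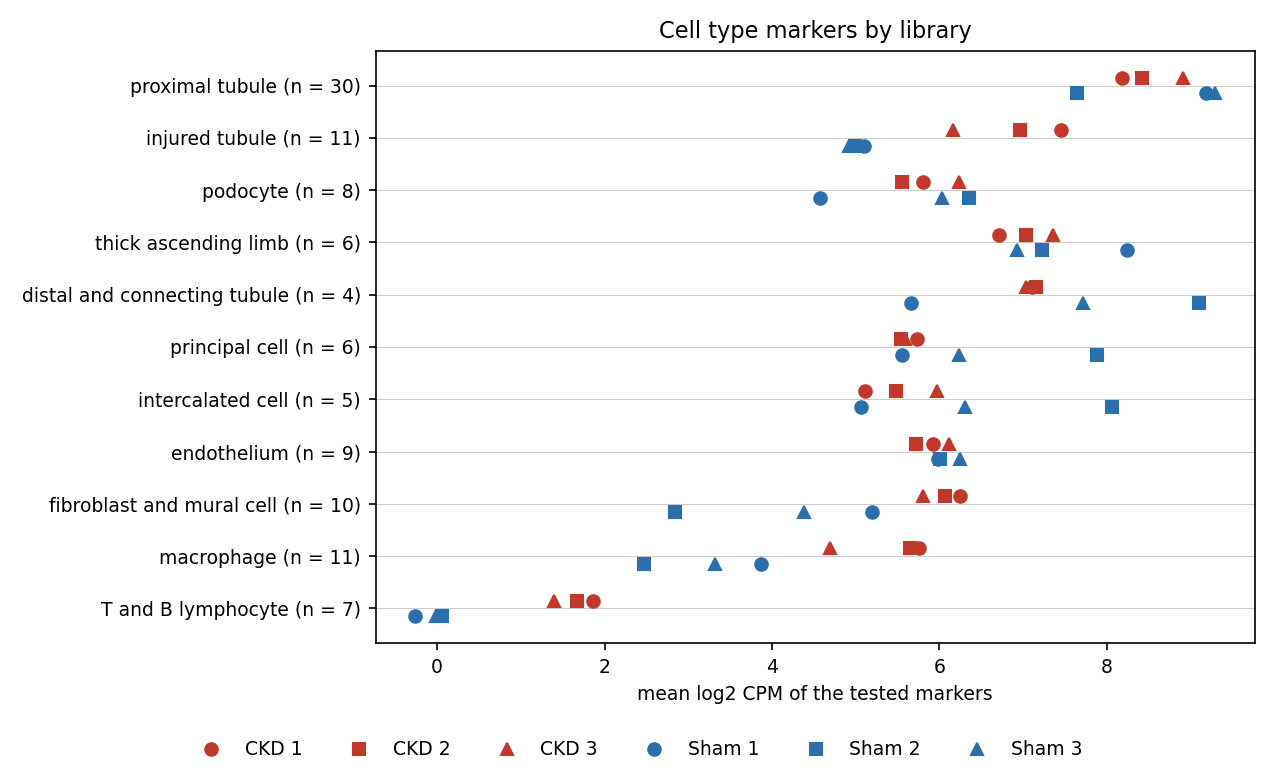
Mean log2 CPM of the tested markers of 11 cell types or states in each library, CKD in red above Sham in blue within a row. In the proximal tubule row the CKD libraries (8.18 to 8.91) lie between Sham 2 (7.65) and Sham 1 and 3 (9.18 and 9.29).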

How the data were processed

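The authors deposited whole-number counts of reads per gene for 6 libraries with gene positions and lengths. Per the submitters' processing notes, fastp 0.20.1, HISAT2 2.1.0, HTSeq 0.11.2 and the build Rnor_6.0 were named, without their roles. Per the labels' protocols, TRIzol was used for total RNA and a VAHTS Universal V5 kit for the libraries. Whether counting used strand is not given here.

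From the counts, edgeR 4.0.16 in R 4.3.3 was used with TMM factors, filterByExpr (minimum count 10, minimum total 15) and the robust quasi-likelihood test, with Benjamini-Hochberg adjustment over the 15371 genes tested. The biological coefficient of variation was 37.5%. Log2 CPM used a prior count of 2. DESeq2 1.42.0 and limma-voom (limma 3.58.1) were alternatives. On simulated data the fit left nearly all of the smaller changes and part of the larger ones uncalled, so an uncalled gene is not shown to be equal between groups.

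Genes named were the 10 genes, per list those called or else the 2 of smallest p, 3 marker genes, ratio partners and nearest profiles. The members and lists were chosen with earlier results of these data known. Replicates within CKD differed by 33.6 to 74.2 times counting noise, and within Sham by 153 to 365 times (chi-square per degree of freedom), so no library repeats another. The table had no Atp6v0a2, Slc9a3r1 or Cd36 under those names. A marker call is not reported here.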

Additional observations from a re-analysis of the deposited data

How the results depend on the processing

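No setting tried called any of the 10 genes (17 settings), and the direction held in 97 of 110 pairs of gene and setting with every library kept and in 50 of 60 with 1 library left out. With library totals alone, 2228 genes were called (2047 higher), 9 other pathway genes (8 higher, 1 lower) and 0 proximal tubule markers (0 lower), and the log2 fold change turned to 0.22 for Amn, 0.29 for Clcn5, 0.32 for Fcgrt, 0.26 for Ap2a1 and 0.31 for Lrpap1. With factors from the proximal tubule markers, 276 genes were lower, 3 pathway genes were called (2 lower) and 2 markers (1 higher), and the value turned to 0.17 for Amn, 0.33 for Clcn5, 0.10 for Fcgrt and 0.26 for Lrpap1. With no filter, 2 markers were called (2 lower). DESeq2 called 2497 genes (1379 higher, 1118 lower), 12 pathway genes (4 higher, 8 lower) and 3 markers (3 lower), against 587, 1 and 1 in edgeR. limma-voom called 164 genes (98 higher, 66 lower), 0 pathway genes (0 higher) and 0 markers (0 lower), with Clcn5 at 0.10 and Lrpap1 at 0.079.

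The labels do not say that replicate numbers pair the libraries. Deviations from the group mean had correlations of -0.21, 0.005 and -0.16 between libraries of 1 number. With 3 libraries per group these values cannot decide whether the numbers mark pairs. With the replicate block, 10 genes were called (4 higher, 6 lower), 0 pathway genes (0 higher) and 0 markers (0 lower), and Clcn5 was at 0.10 and Lrpap1 at 0.072.

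Leaving out 1 library gave 0 to 1711 genes called (0 to 789 higher, 0 to 922 lower), 0 to 8 pathway genes (0 to 2 higher, 0 to 6 lower) and 0 to 1 markers (0 to 1 lower). The most were called when Sham 1 was left out, 2 when Sham 2 was, 7 when Sham 3 was, and 0 when CKD 1 or CKD 2 was. The log2 fold change ran from -0.34 to 0.53 for Lrp2, -0.58 to 0.17 for Amn, -0.059 to 0.99 for Dab2, -0.53 to 0.47 for Clcn5, -0.011 to 0.19 for Ocrl, -0.062 to 0.59 for Folr1 and -0.50 to 0.27 for Lrpap1, and kept its sign for Cubn, Fcgrt and Ap2a1. The log2 difference ran from 0.34 to 0.92 for Cubn over Amn, from -0.53 to -0.17 for Ap2a1 over Ap2a2, from -0.99 to -0.32 for Clcn5 over Clcn4, from 0.12 to 0.71 for Lrp2 over Lrpap1, from -0.42 to 0.17 for Lrp2 over Cubn, from -0.50 to 0.49 for Lrp2 over Dab2 and from -0.26 to 0.12 for Ocrl over Inpp5b. The cause of these shifts was not tested. A gene that was not called may still differ between the groups.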
